A study of Bos taurus with 16 samples.

Results

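The ubiquitin E2 conjugating enzymes were followed through bovine pre-implantation development in vivo. The members were all loci of the deposited table of normalised read counts whose name starts with UBE2, which gave 35 loci under 34 names out of 27393 loci. UBE2O was the name with a pair of loci. The symbol UBE2CBP is an older name of UBE3D, a ligase that binds UBE2C and is not itself a conjugating enzyme, and it was kept because the rule follows the name. Of the 34 names, 33 were current symbols in the RefSeq gene table used here (assembly ARS-UCD2.0) and 1 was a synonym, and the only UBE2 symbol of that table without a locus was UBE2QL1.

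Ubiquitin is a small protein that is attached to other proteins in a relay. An activating enzyme (E1) charges it and passes it to a conjugating enzyme (E2), and a ligase (E3) then brings the loaded E2 to the substrate. The E2 largely sets whether a single ubiquitin or a chain is made and how the chain is linked, and thereby whether the substrate is sent to the proteasome or is changed in activity, location or partners. A few E2 enzymes carry related proteins such as SUMO or NEDD8 in place of ubiquitin. In oocytes and early embryos, proteasomal destruction drives the exit from meiosis and the removal of maternal proteins.

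RNA-Seq libraries were available from 16 single bovine (Bos taurus) oocytes or embryos, 2 at each of 8 stages. The stages were the oocyte arrested at metaphase II and matured in vivo (MII), the 2-cell (2C), 4-cell (4C), 8-cell (8C) and 16-cell (16C) embryo, the early morula (EM), the compact morula (CM) and the blastocyst (BL). No group carried a treatment or a genetic change, and the donor animals of single samples are not given in the sources used here. The p-values therefore measure only the spread between these samples. Embryonic genome activation (EGA) is the onset of major transcription from the embryo's own genome. In bovine embryos developed in vivo it is placed between the 4- and the 8-cell stage. Samples were thus compared as before EGA (MII, 2C and 4C, n = 6) and after EGA (8C to BL, n = 10), as well as between single stages. The groups before and after EGA each pool several stages, so the spread in that comparison includes differences between stages. Because each library holds a whole oocyte or embryo, fewer cells of a type and less RNA per cell cannot be told apart in a blastocyst.

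The libraries held 607672 to 3379426 reads over all loci of the deposited values. Values below are deposited normalised read counts, that is reads divided by a size factor per sample, and 1 read corresponded to 0.365 to 1.80 of these units. A floor of 3 reads thus lay between 1.09 and 5.40, and it covers counting error only, since the RNA was amplified before sequencing and amplified molecules were not told apart. The values are not divided by transcript length, so levels are compared between samples and never between genes. The summed level of 7 oocyte markers ran from 15289 to 24379 in MII and from 5.07 to 9.51 in BL, and BMP15 was listed at 0 in every sample. The summed level of 7 trophectoderm markers was 1280.2 and 1308 in BL against 27.7 to 60.9 before EGA, although CDX2 was at 0 in BL. Of the sperm markers PRM1 and ACR were listed at 0 throughout and TNP1 reached 3.23, and of the blood markers HBB and HBA were listed at 0 throughout and PTPRC reached 7.21 in 1 sample. BMP15 and ACR lie in a long run of consecutive loci at 0, so no level is given for them. Within stages, the log2 values of 9670 loci correlated with r = 0.729 (8C) to 0.928 (4C) between the 2 samples, a description across loci.

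Reads were present on 31 of the 35 UBE2 loci in at least 1 sample and on 20 in all 16 samples. Samples before EGA held reads on 22 to 31 of them, and samples after it on 25 to 28. UBE2A, UBE2T, UBE2V2 and UBE2W were listed at 0 in every sample. All of these 4 loci lay in 1 run of 2578 consecutive loci of the table that were at 0 in every sample, so no level is given for them. The family therefore could not be described for UBE2A, the close relative of UBE2B, for UBE2T, the E2 of DNA crosslink repair, or for UBE2V2, a partner of UBE2N. After the filter on low counts 24 members were tested, and 7 with reads were not. For the comparison across EGA the filter asked for 7.42 CPM, or 10 reads at the median depth, in at least 6 samples. For the model of 8 stages and its comparisons of single stages it asked for that level in 2 samples. Of the members tested, UBE2G2, UBE2J1 and UBE2M reached that level in 0 samples before EGA and passed through the samples after it, and UBE2Q2 reached it in 6 samples before and 1 after EGA. For these 4 members the filter favoured the direction of change, and the counts of calls include them.

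Transcript abundance of the family differed in both directions between the samples before and after EGA. Of the 24 members tested, 8 rose and 7 fell after EGA (limma on log2 of the normalised read count plus 1, adjusted p under 0.05). The background was high, since 66.8% of the 6910 loci tested changed, 36.9% being higher and 29.9% lower, so the share of UBE2 members called (62.5%) was near that of all loci. The members that rose were UBE2J1, UBE2G2, UBE2L3, UBE2O, UBE2C, UBE2F, UBE2M and UBE2S, and those that fell were UBE2Q2, UBE2D3, UBE2G1, UBE2D2, UBE2Z, UBE2N and UBE2H. The median log2 change of the members was -0.07 against 0.23 for all loci. When samples were scaled by total reads, these medians moved to 0.40 and 0.67, and the calls split into 10 higher (UBE2K and UBE2J2 added) and 2 lower (UBE2D3 and UBE2Q2). Markers of cumulus cells moved with the same comparison. Of the 7 on the list, 6 had reads, AMH was at 0, and their sum was 112 to 397 before EGA against 0 to 37.8 after it. HAS2 made most of the sum before EGA, at 98.1 to 367, and was at 0 to 21.8 after it. TNFAIP6 had reads only after EGA, at stage means of at most 1.80. The part of these markers in the changes of UBE2 members was not tested.

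In every sample after EGA the levels of UBE2C, UBE2G2, UBE2J1, UBE2F and UBE2M lay above every sample before it, and those of UBE2Q2 lay below. Of all loci tested, 16.0% had all samples after EGA above all samples before it and 14.1% had them below. Across the 8 stages, 13 of 24 members differed at an adjusted p under 0.05 (limma, moderated F), beside 66.7% of 9670 loci. UBE2Z, UBE2H, UBE2S, UBE2G1 and UBE2N, called after EGA, were not called across stages (limma, adjusted p = 0.39, 0.098, 0.083, 0.070 and 0.060). The range of change is drawn in the plot of log2 change by member.

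**Figure D1:**
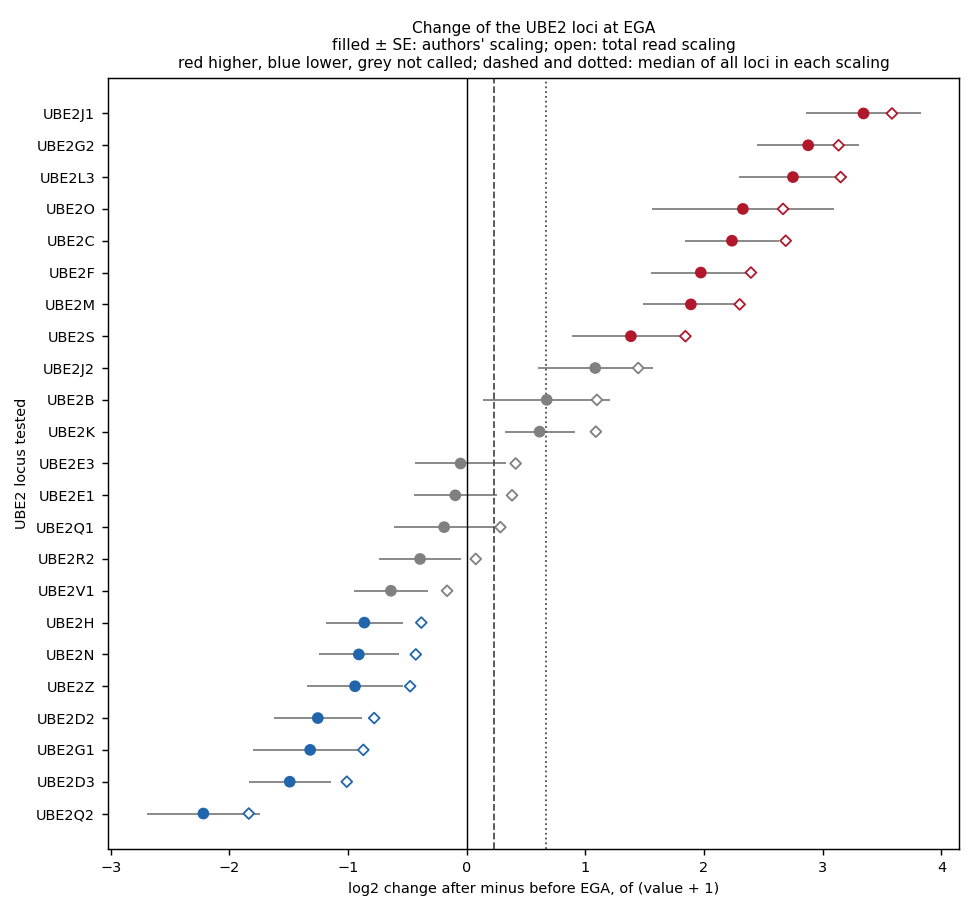
Log2 change of 23 of the tested UBE2 members after EGA (10 samples) against before EGA (6 samples), with bars of 1 standard error (horizontal axis, log2 of the normalised read count plus 1; filled, deposited scaling; open, scaling by total reads; dashed and dotted lines, medians of all loci of 0.23 and 0.67). Changes ran from -2.22 (UBE2Q2) to 3.34 (UBE2J1), with 8 members called higher and 7 called lower by limma.

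The E2 enzymes of the anaphase-promoting complex, the ligase that destroys cyclin B and securin at the end of meiosis and mitosis, were both called higher, beside 36.9% of all loci. UBE2C places the first ubiquitin on substrates of this ligase and UBE2S lengthens the chain. UBE2C (XLOC_012568) had normalised read counts of 11.1 and 8.51 in MII, 8.70 and 8.76 in 2C, 23.1 and 25.2 in 4C, 133 and 143 in 8C, 59.9 and 34.0 in 16C, 66.5 and 88.4 in EM, 32.1 and 55.4 in CM, and 46.7 and 58.6 in BL. The pair of 8C embryos was highest, the 4C embryos were the highest before EGA, and the groups did not overlap. UBE2C averaged 14.2 ± 7.76 before EGA (SD, n = 6) and 71.8 ± 38.6 after it (SD, n = 10). The log2 change of UBE2C was 2.23 ± 0.40 (SE, limma, adjusted p = 4.6e-05), and the step from 4C to 8C alone was 2.47 ± 0.54 (SE, limma, adjusted p = 0.0029). UBE2S was 1.62 to 16.6 before EGA (median 6.33) and 5.40 to 30.7 after it (median 24.2), with overlap of the groups. Its change was 1.38 ± 0.50 (log2, SE, limma, adjusted p = 0.019). Without the second 4C embryo, the sample with the lowest UBE2S level, the adjusted p was 0.064 (limma).

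The subunits and activators of the anaphase-promoting complex, with which UBE2C works, were mostly not called. Of the 15 genes listed, 11 were tested, 2 rose and 2 fell, beside 36.9% of all loci higher and 29.9% lower. ANAPC5, which rose, passed the filter only through samples after EGA. CDC20, the activator used in metaphase, averaged 65.0 ± 25.1 before and 154 ± 133 after EGA and was not called (log2 change 0.82 ± 0.51, limma, adjusted p = 0.16), but it rose from 4C to 8C (1.49 ± 0.54, limma, adjusted p = 0.042) and differed across the 8 stages (limma, adjusted p = 0.0010). CDC27, a core subunit, fell from 118 ± 59.9 to 46.0 ± 21.6 (log2 change -1.35 ± 0.39, limma, adjusted p = 0.0050). UBE2CBP, named for its binding to UBE2C, held 8 reads over the 6 samples before EGA and 33 over the 10 after it, all of which had reads. It was not tested, and a fit with no filter called it higher (limma, adjusted p = 0.022) on at most 5 reads in a sample.

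The UBE2D class holds the most general E2 enzymes, which work with very many RING and HECT ligases. Of its 4 members 2 were tested, and both fell, beside 29.9% of all loci lower. UBE2D3 (XLOC_060136) had 480.0 and 1106 normalised read counts in MII, 590.3 and 431 in 2C, 368 and 259 in 4C, 243 and 345 in 8C, 165 and 97.0 in 16C, 165 and 212 in EM, 144 and 109.8 in CM, and 197 and 151 in BL. The MII oocytes differed from each other more than 2C embryos did, and the second 8C embryo lay above the lowest 4C embryo, so that the groups overlapped. UBE2D3 averaged 539 ± 299 before and 183 ± 72.2 after EGA, a log2 change of -1.49 ± 0.35 (SE, limma, adjusted p = 7.4e-04). Between 4C and 8C it changed by -0.09 ± 0.53 (log2, SE) and was not called.

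UBE2D2 (XLOC_063288), which is nearly identical to UBE2D3 in protein sequence, had 130.2 and 129.8 in MII, 116 and 75.5 in 2C, 95.0 and 126 in 4C, 70.3 and 48.2 in 8C, 31.6 and 66.3 in 16C, 34.0 and 34.4 in EM, 45.4 and 14.1 in CM, and 68.0 and 101 in BL. The second blastocyst was above the lowest 2C and 4C embryos, and otherwise every embryo after EGA was below the samples before it. The log2 change of UBE2D2 was -1.25 ± 0.37 (SE, limma, adjusted p = 0.0052). Under scaling by total reads the UBE2D2 change was -0.78 and was no longer called. The rule used for reads that map to several places is not given in the sources used here, so the division of reads among UBE2D genes and their copies is uncertain.

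UBE2D1, the third of the class, was too low to pass the filter. It held 56 reads before EGA, in 6 of 6 samples (2.44 to 10.6 normalised read counts), and 5 reads after it, in 3 of 10 samples. From 16C to BL 1 read was found, in a compact morula. When no filter was applied, the log2 change of UBE2D1 was -2.21 ± 0.48 (SE, limma, adjusted p = 8.0e-04). UBE2D4 held reads in 7 samples, at levels of at most 2.22, and was not tested.

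The UBE2E class is related to UBE2D and has a long N-terminal extension. UBE2E1 (XLOC_046185) showed 73.8 and 173 in MII, 126 and 154 in 2C, 121 and 99.9 in 4C, 112 and 53.9 in 8C, 121 and 152 in 16C, 89.7 and 136 in EM, 111 and 55.4 in CM, and 259.7 and 147 in BL. The first blastocyst was highest and the second 8C embryo was lowest, and the groups overlapped fully. UBE2E1 averaged 125 ± 35.9 before and 124 ± 58.7 after EGA, with a log2 change of -0.10 ± 0.35 (SE, limma, adjusted p = 0.82), and its stage effect was not called either (limma, adjusted p = 0.43). The sign of this change turned positive in 5 of the alternatives. UBE2E3 ranged from 25.8 to 44.7 before EGA and from 7.73 to 68.5 after it and was not called (log2 change -0.05 ± 0.38, limma, adjusted p = 0.91). UBE2E2 stayed at or below 11.2 in every sample and was not tested.

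UBE2L3 works only with HECT and RBR ligases such as ARIH1 and parkin. It was among the members with the largest rise. UBE2L3 (XLOC_022146) had 32.3 and 1.06 in MII, 9.50 and 10.2 in 2C, 10.1 and 8.93 in 4C, 61.3 and 71.1 in 8C, 28.3 and 46.9 in 16C, 104 and 62.2 in EM, 75.4 and 76.0 in CM, and 85.2 and 72.9 in BL. Only the first MII oocyte overlapped the samples after EGA, where it lay above the first 16C embryo. UBE2L3 averaged 12.0 ± 10.5 before and 68.4 ± 20.7 after EGA, a log2 change of 2.75 ± 0.45 (SE, limma, adjusted p = 1.9e-05). The step from 4C to 8C was 2.67 ± 0.90 (SE, limma, adjusted p = 0.031). This step was not called without either 4C embryo, without either 8C embryo or without the first blastocyst, where adjusted p values were 0.11, 0.13, 0.096, 0.088 and 0.051 (limma) and the change ran from 2.56 to 2.78, nor with no filter on low counts (adjusted p = 0.058). From MII to 4C UBE2L3 was called only without the first MII oocyte (log2 change 2.35, limma, adjusted p = 0.049). Among the ligase partners of UBE2L3, ARIH2 rose (log2 change 1.47 ± 0.51, limma, adjusted p = 0.015) and ARIH1 fell (-1.17 ± 0.29, limma, adjusted p = 0.0013).

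**Figure D2:**
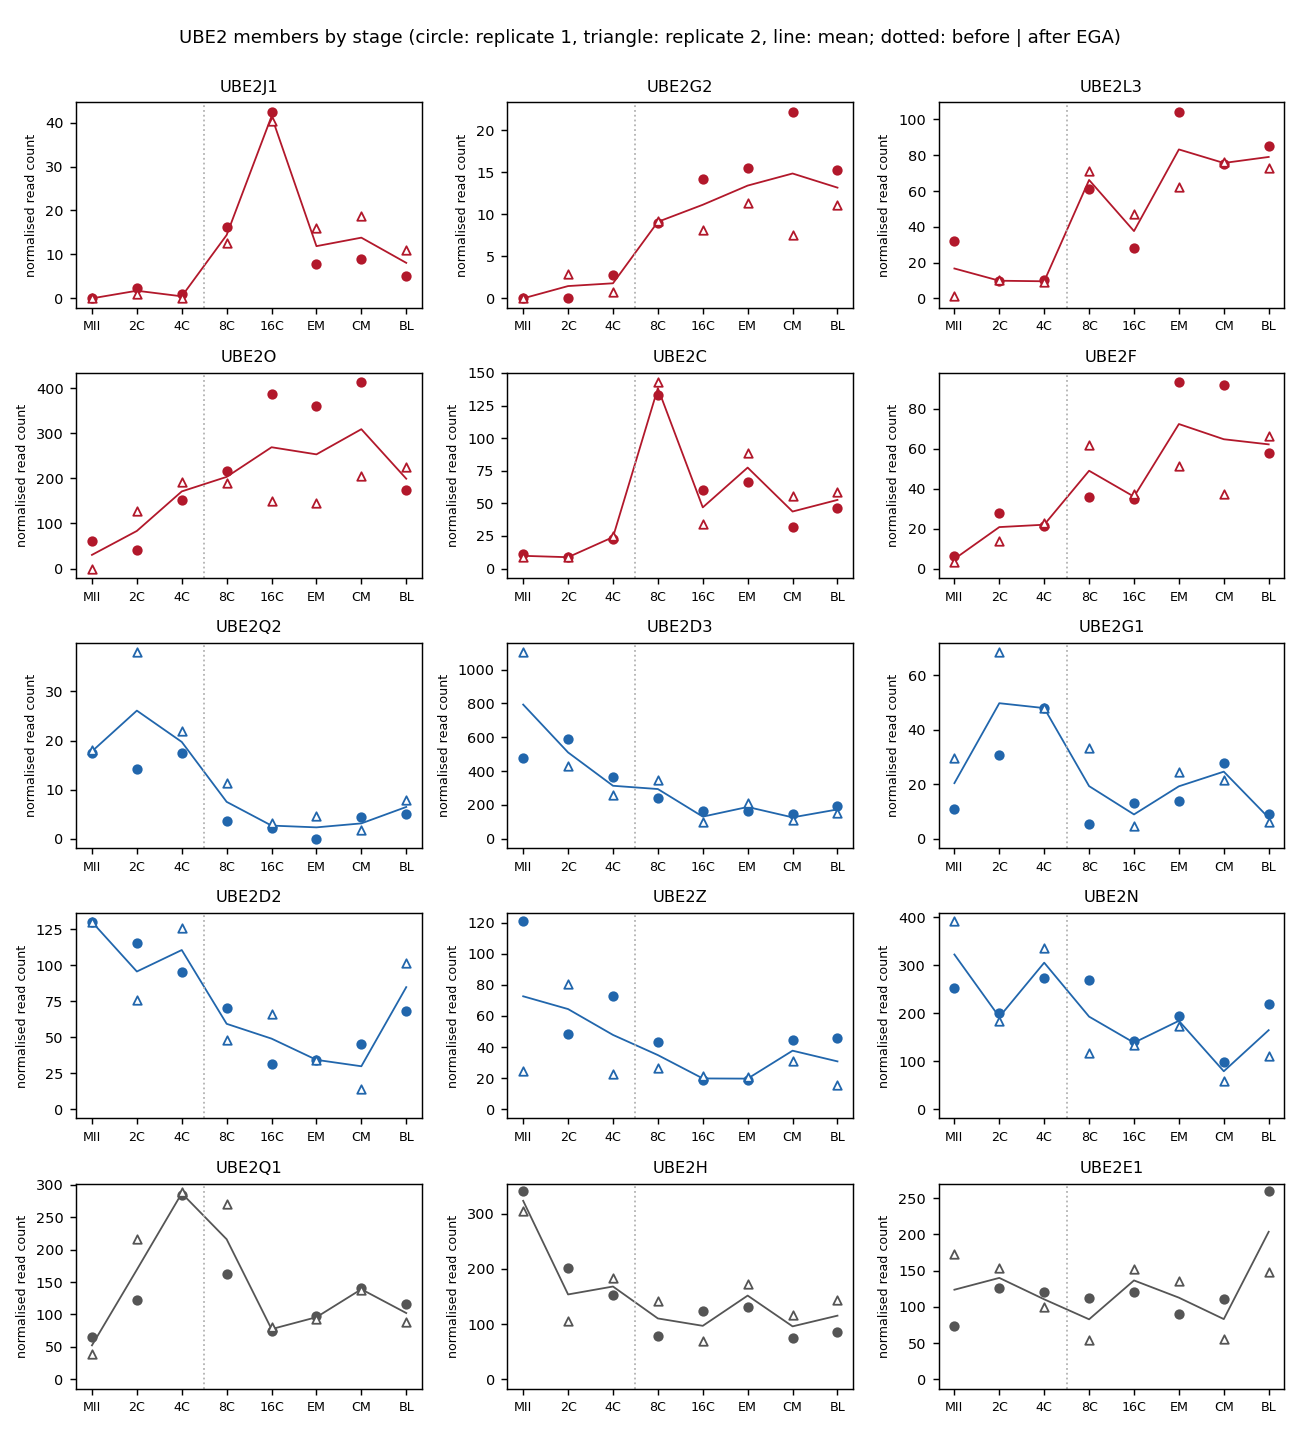
Normalised read counts (vertical axes, linear, each with its own range) of named UBE2 members in each of 16 samples by stage, with circles for replicate 1 triangles for replicate 2, a line through the means and a dotted line between 4C and 8C (red, the 6 largest rises after EGA; blue, the 6 largest falls; grey, other members). UBE2C peaks at 8C (133 and 143), UBE2J1 at 16C (42.5 and 40.4), and UBE2D3 has its highest stage mean in MII (793).

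The E2 enzymes of the endoplasmic reticulum take part in the destruction of misfolded secretory proteins. UBE2J1 and UBE2J2 are anchored in its membrane, and UBE2G1 and UBE2G2 are soluble. Of these 4 genes, 2 rose and 1 fell, beside 36.9% of all loci higher and 29.9% lower. UBE2J1 (XLOC_070203) was at 0 and 0 in MII, 2.37 and 1.09 in 2C, 0.922 and 0 in 4C, 16.2 and 12.6 in 8C, 42.5 and 40.4 in 16C, 7.73 and 16.0 in EM, 8.87 and 18.8 in CM, and 5.07 and 11.1 in BL. All samples before EGA lay at or below the floor of 3 reads, and the 16C embryos were highest. UBE2J1 had a fitted log2 change of 3.34 ± 0.48 (SE, limma, adjusted p = 3.6e-06), the largest of the 24 tested members except with a pseudocount of 5, where that of UBE2L3 was larger (1.84 against 2.25). The fitted step of UBE2J1 between 4C and 8C was 3.46 ± 0.76 (SE, limma, adjusted p = 0.0030), but with 1 and 0 reads in the 4C embryos its size depends on the pseudocount. The size of the UBE2J1 change depended on the treatment of low values and ran from 1.84 to 4.48 over the alternatives.

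UBE2J2 was 1.06 to 9.85 before EGA (median 6.85) and 2.18 to 21.5 after it (median 14.3), and its change of 1.08 ± 0.48 (log2, SE) was not called (limma, adjusted p = 0.053). It was called without the first 16C embryo, in which the level was 2.18 (limma, adjusted p = 0.013). Leaving out the second 16C, the second 2C or the second 4C embryo also brought it past the threshold, with adjusted p values of 0.049, 0.040 and 0.045 (limma). UBE2J2 did differ across the 8 stages (limma, adjusted p = 0.030), with stage means from 1.92 ± 1.21 in MII to 19.3 ± 3.18 in EM (SD, n = 2).

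UBE2G2 (XLOC_000457) was at 0 and 0 in MII, 0 and 2.92 in 2C, 2.77 and 0.812 in 4C, 9.01 and 9.18 in 8C, 14.2 and 8.09 in 16C, 15.5 and 11.3 in EM, 22.2 and 7.51 in CM, and 15.2 and 11.1 in BL. The lowest sample after EGA, at 7.51, lay above the highest before it, at 2.92. The fitted log2 change of UBE2G2 was 2.88 ± 0.43 (SE, limma, adjusted p = 5.8e-06), on 0 to 8 reads per sample before EGA, and it ran from 1.50 to 3.46 over the alternatives. UBE2G1 (XLOC_027804) moved the other way, with 11.1 and 29.8 in MII, 30.9 and 68.6 in 2C, a mean of 47.9 in 4C, 5.40 and 33.3 in 8C, 13.1 and 4.85 in 16C, 13.9 and 24.6 in EM, 27.7 and 21.6 in CM, and 9.13 and 6.34 in BL. The groups overlapped, with both MII oocytes and the first 2C embryo below the second 8C embryo, and the change was -1.32 ± 0.48 (log2, SE, limma, adjusted p = 0.020). Without the second 2C embryo, which had the highest UBE2G1 level, the change was -1.12 and the adjusted p was 0.059 (limma), and under scaling by total reads it was -0.87 (adjusted p = 0.17).

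Shares within such pairs need no scaling between samples. They are shares of reads, which also reflect transcript length, so only their change between samples is described, and their intervals cover counting error of amplified reads only. UBE2G2 took 0% to 5.45% of the UBE2G1 and UBE2G2 reads before EGA (median 0.833%) and 21.6% to 63.6% after it (median 52.3%). The sample with the highest share before EGA was the first 4C embryo, with 3 reads of UBE2G2 against 52 of UBE2G1 (exact Clopper-Pearson 95% interval 1.14% to 15.1%). The lowest after EGA was the second 8C embryo with 8 against 29 reads (interval 9.83% to 38.2%), which overlapped the former interval. In the first MII oocyte, with 0 reads of UBE2G2 and 12 of UBE2G1, the interval reached 26.5%. UBE2J1 took 0% to 27.3% of the UBE2J1 and UBE2J2 reads before EGA and 31.25% to 95.1% after it, on as few as 1 read of the pair in an MII oocyte. The highest share before EGA, in the first 2C embryo (interval 6.02% to 61.0%), and the lowest after it, in the first EM embryo (interval 16.1% to 50.0%), could not be told apart by their intervals. The share was highest in the first 16C embryo, with 39 reads of UBE2J1 and 2 of UBE2J2 (interval 83.5% to 99.4%).

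UBE2L3 and UBE2D3, which are loaded by the same E1 and overlap in the ligases they can serve, were set against each other in the same way. From the same reads UBE2L3 and UBE2G2 were called higher and UBE2D3 and UBE2G1 lower. The shifts of their shares follow from those calls and are no separate support. UBE2L3 took 0.0961% to 6.31% of their joint reads before EGA (median 2.50%) and 14.6% to 40.9% after it (median 31.4%). The highest share before EGA was that of the first MII oocyte (interval 4.43% to 8.66%), and the lowest after it was that of the first 16C embryo (interval 9.77% to 20.7%). UBE2Q1 took 68.5% to 94.2% of the UBE2Q1 and UBE2Q2 reads before EGA and 91.8% to 100% after it, with overlap of the ranges. UBE2D2 took a median of 18.4% of the UBE2D2 and UBE2D3 reads before and 19.8% after EGA. UBE2N took a median of 81.3% of the UBE2N and UBE2V1 reads before and 78.3% after EGA, and the ranges of both pairs overlapped between the periods. The ranges also overlapped for UBE2E1 with UBE2E3, UBE2C with UBE2S, UBE2F with UBE2M and UBE2D1 with UBE2D3.

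**Figure D3:**
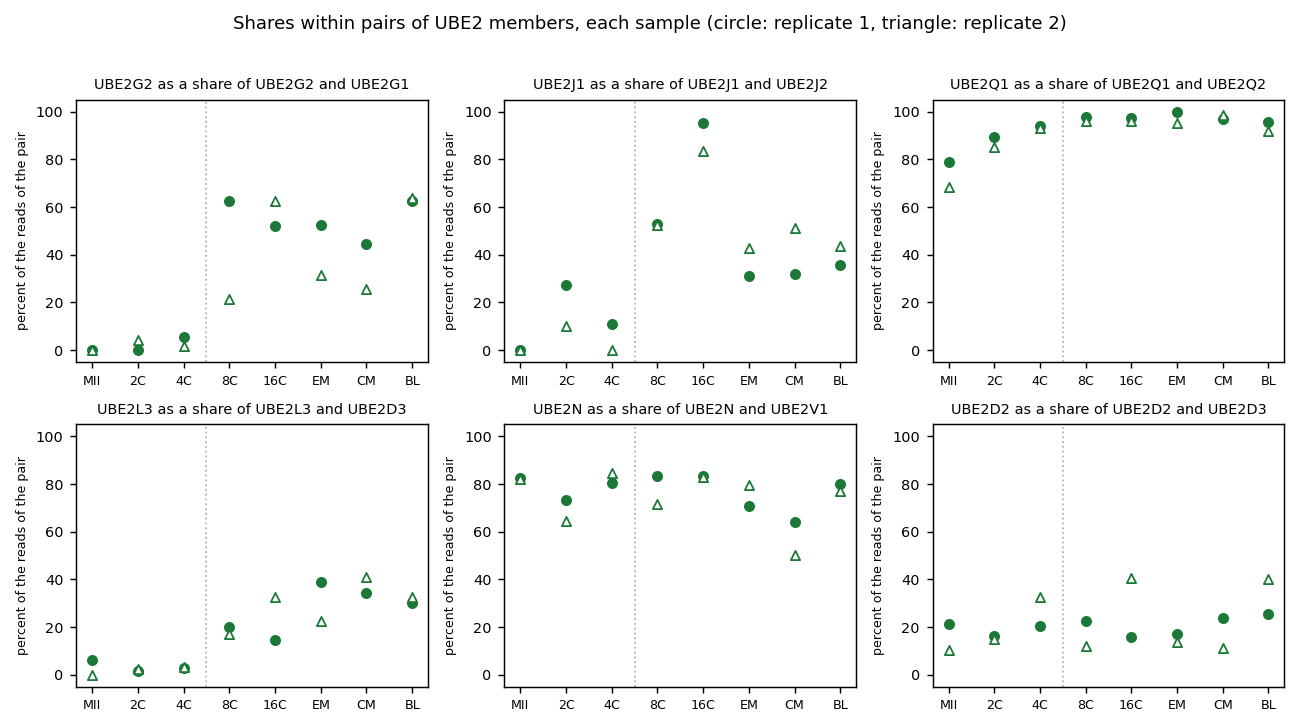
Share of the first gene in the reads of each of 6 pairs (vertical axes, percent) in each of 16 samples by stage, with circles for replicate 1, triangles for replicate 2 and a dotted line between 4C and 8C. UBE2G2 stays at or below 5.45% up to 4C and is 21.6% to 63.6% from 8C on, while the share of UBE2D2 overlaps between the periods.

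UBE2N is the E2 for chains that serve in signalling and DNA damage tolerance and not in destruction, and it acts together with UBE2V1 or UBE2V2, variants without a catalytic cysteine. UBE2N (XLOC_057212) had 253 and 391 in MII, 200.2 and 184 in 2C, 274 and 336 in 4C, 268 and 117 in 8C, 143 and 134 in 16C, 194 and 174 in EM, 98.6 and 59.1 in CM, and 218 and 111 in BL. The first 8C embryo, the first early morula and the first blastocyst reached the range before EGA, and the compact morulae were lowest. The change was -0.91 ± 0.33 (log2, SE, limma, adjusted p = 0.021). Without the second MII oocyte it was -0.80 with an adjusted p of 0.050 (limma), just above the threshold, and under scaling by total reads it was -0.43 (adjusted p = 0.32). UBE2V1 averaged 73.3 ± 17.1 before and 48.1 ± 16.1 after EGA, and its change of -0.64 ± 0.31 (log2, SE) was not called (limma, adjusted p = 0.076). Leaving out the first EM embryo brought UBE2V1 past the threshold (limma, adjusted p = 0.049).

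The RAD6 class serves in histone H2B ubiquitination and DNA damage tolerance, and UBE2B was its only member with reads. UBE2B ranged from 1.85 to 22.6 before EGA (median 16.9) and from 3.60 to 42.6 after it (median 22.1), and it was not called at EGA (log2 change 0.67 ± 0.53, limma, adjusted p = 0.27; 0.23 without the first MII oocyte, adjusted p = 0.70). The lowest sample was the first MII oocyte, and the first 8C embryo was next. UBE2B differed across the 8 stages (limma, adjusted p = 0.046), with means of 6.39 ± 3.94 in 8C and 33.7 ± 12.6 in EM (SD, n = 2). Without both 8C embryos the change after EGA was 1.08 with an adjusted p of 0.050 (limma), just below the threshold.

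Of 5 E2 enzymes listed for ubiquitin-like proteins 4 were tested, 2 rose and 1 fell, beside 36.9% of all loci higher and 29.9% lower. Those that rose were the E2 enzymes of NEDD8. UBE2M and UBE2F load NEDD8 onto cullins and thereby switch on the cullin-RING ligases. UBE2F (XLOC_050572) had 6.46 and 3.19 in MII, 27.7 and 13.9 in 2C, 21.2 and 22.7 in 4C, 36.0 and 61.9 in 8C, 34.8 and 37.2 in 16C, 93.5 and 51.2 in EM, 92.0 and 37.5 in CM, and 57.8 and 66.5 in BL. The MII oocytes were lowest and every embryo from 8C on exceeded every earlier sample. UBE2F changed by 1.97 ± 0.42 (log2, SE, limma, adjusted p = 3.4e-04). From MII to 4C the UBE2F change of 2.04 ± 0.63 was not called (limma, adjusted p = 0.056). Under scaling by total reads it was 2.62 and was called (limma, adjusted p = 0.022). It also passed when either 2C or either 8C embryo was left out, in fits that tested more loci. UBE2M was 0.812 to 3.69 before EGA, below the filter level in all 6 samples, and 5.63 to 23.3 after it, a change of 1.89 ± 0.40 (log2, SE, limma, adjusted p = 3.4e-04), and its step from 4C to 8C was 2.22 ± 0.78 (log2, SE, limma, adjusted p = 0.037). On 1 to 6 reads per sample before EGA, the size of the change ran from 1.17 to 2.36 over the alternatives and that of the step from 1.26 to 2.74. The step was lost under 9 alternatives. Leaving out the first 4C, the second 4C, the first 8C or the second 8C embryo gave adjusted p values of 0.059, 0.23, 0.092 and 0.080 (limma).

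Other genes of the NEDD8 route moved in both directions. NEDD8 itself rose from 9.69 ± 9.30 to 16.5 ± 6.56 (log2 change 1.16 ± 0.51, limma, adjusted p = 0.047). NAE1, a subunit of the NEDD8 E1, fell from 249 ± 199 to 51.6 ± 16.6 (log2 change -1.98 ± 0.39, limma, adjusted p = 1.3e-04), while UBA3, the other subunit, was not called (-0.05 ± 0.46, limma, adjusted p = 0.92). Of the 9 genes listed for cullin ligases, 8 were tested, of which 4 rose (CUL2, CUL3, RBX1 and SKP1) and 0 fell. CUL2 reached the filter level in 0 samples before EGA and passed through 9 samples after it, so the filter favoured its rise. These counts stand beside 36.9% higher and 29.9% lower among all loci tested.

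UBE2Z, which carries FAT10 and ubiquitin, showed 121 and 24.5 in MII, 48.3 and 80.7 in 2C, 72.9 and 22.7 in 4C, 43.2 and 26.4 in 8C, 18.5 and 21.0 in 16C, 18.5 and 20.7 in EM, 44.3 and 31.0 in CM, and 45.7 and 15.8 in BL. The groups overlapped, and samples of MII and of 4C differed widely from each other. The UBE2Z (XLOC_027966) change of -0.94 ± 0.40 (log2, SE, limma, adjusted p = 0.045) was lost under 13 alternatives, 11 of which left out 1 sample (limma, adjusted p 0.052 to 0.14). Under scaling by total reads it was -0.48 (limma, adjusted p = 0.35). Among the fits without 1 sample it was kept without the second MII, the second 4C, the first 8C, the first CM or the first BL sample. UBE2L6, the E2 of the interferon-induced ISG15, held 5 reads before EGA and none after it, while ISG15 was at 0 throughout. With at most 2 reads in a sample UBE2L6 lay under the floor of 3 reads, so no change is given, although a fit with no filter called it.

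UBE2K and UBE2R2, listed as builders of lysine-linked degradation chains, were not called, beside 66.8% of all loci that changed. UBE2K averaged 55.2 ± 15.5 before and 85.0 ± 20.6 after EGA (log2 change 0.61 ± 0.29, SE, limma, adjusted p = 0.071), with its highest stage mean in EM. It was past the threshold without the second 4C embryo (limma, adjusted p = 0.043), without the second blastocyst (adjusted p = 0.049) and under scaling by total reads, in DESeq2 and in the model of 8 stages. UBE2R2 averaged 67.1 ± 24.4 before and 51.7 ± 24.1 after EGA (log2 change -0.39 ± 0.35, SE, limma, adjusted p = 0.33), with stage means from 34.0 ± 12.2 in BL to 92.2 ± 25.0 in 8C (SD, n = 2).

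Among the remaining members were those that changed before EGA. UBE2Q1 (XLOC_050017) had 65.5 and 39.4 in MII, 122 and 216 in 2C, 284 and 289 in 4C, 162 and 269.5 in 8C, 74.0 and 80.9 in 16C, 98.2 and 93.4 in EM, 141 and 137 in CM, and 116 and 88.7 in BL. The 4C embryos were highest and the MII oocytes were lowest, and these pairs did not overlap. From MII to 4C UBE2Q1 rose by 2.47 ± 0.50 (log2, SE, limma, adjusted p = 0.011), whereas after EGA it was not called (-0.19 ± 0.42, limma, adjusted p = 0.70). Without the second MII, the first 4C or the second 4C sample the rise was 2.11, 2.49 and 2.46 with adjusted p values of 0.097, 0.094 and 0.084 (limma). UBE2Q1 and UBE2O were the 2 of 24 members called between MII and 4C, both higher, beside 8.68% of 9670 loci changed, 6.48% higher and 2.19% lower.

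UBE2Q2 (XLOC_035081), the paralog of UBE2Q1, had 17.5 and 18.1 in MII, 14.2 and 38.0 in 2C, 17.5 and 21.9 in 4C, 3.60 and 11.5 in 8C, 2.18 and 3.23 in 16C, 0 and 4.69 in EM, 4.43 and 1.88 in CM, and 5.07 and 7.92 in BL. Every sample after EGA was below every sample before it, and the second 2C embryo was highest. UBE2Q2 averaged 21.2 ± 8.56 before and 4.45 ± 3.26 after EGA, a log2 change of -2.22 ± 0.48 (SE, limma, adjusted p = 3.5e-04). The step from 4C to 8C was -1.44 ± 0.89 (log2, SE) and was not called (limma, adjusted p = 0.22).

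UBE2O is a large enzyme with both E2 and E3 activity that removes orphan proteins and remodels the reticulocyte. Its main locus (XLOC_027533) had 60.9 and 0 in MII, 40.4 and 127 in 2C, 151 and 191 in 4C, 216 and 190.4 in 8C, 388 and 150.4 in 16C, 361 and 145 in EM, 413 and 205 in CM, and 173 and 225 in BL. The second MII oocyte had no read, and the 4C embryos lay within the range after EGA. UBE2O changed by 2.33 ± 0.77 after EGA (log2, SE, limma, adjusted p = 0.011), or by 1.22 without the second MII oocyte (limma, adjusted p = 0.0098), and by 4.44 ± 1.26 from MII to 4C (log2, SE, limma, adjusted p = 0.042). Without that oocyte the step from MII to 4C was 1.46 and was not called (limma, adjusted p = 0.43), and it was lost under 17 alternatives in all. With 1 sample left out it was kept only without the first MII, the second 2C or the second 8C sample. The edgeR test of the recovered reads did not call the change after EGA (adjusted p = 0.096, log2 1.18). The other UBE2O locus (XLOC_028237) had reads in 2 samples only, at 2.19 and 3.44.

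UBE2H acts with the CTLH ligase, which in oocytes of other animals removes maternal proteins. UBE2H (XLOC_054213) had 341 and 305 in MII, 201 and 106 in 2C, 153 and 183 in 4C, 79.3 and 141 in 8C, 124 and 69.5 in 16C, 131 and 172 in EM, 75.4 and 116 in CM, and 86.2 and 144 in BL. The MII oocytes were highest and apart from all other samples, while the second 2C and the first 4C embryo lay within the range after EGA. UBE2H fell by 0.86 on the log2 scale after EGA (SE 0.32, limma, adjusted p = 0.023), and without the first or the second MII oocyte the adjusted p was 0.070 and 0.057 (limma). Under scaling by total reads it was -0.38 and was not called (limma, adjusted p = 0.34). UBE2U had reads in 4 samples, at levels of at most 1.09.

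Between 4C and 8C, 4 of 24 members changed, all of them higher (UBE2J1, UBE2L3, UBE2C and UBE2M), beside 36.8% of 9670 loci changed, 17.7% higher and 19.1% lower. Without the first 4C, the second 4C or the first 8C embryo fewer members were called, and the share of all loci called was lower as well. Those fits also tested more loci. Without the second 8C embryo 3 were called, UBE2C and UBE2J1 higher and UBE2G1 lower (log2 change -2.93 ± 0.83, limma, adjusted p = 0.015). Between 8C and BL 0 members were called by limma, beside 10.1% of all loci changed, 6.44% higher and 3.63% lower, and edgeR and DESeq2 called 0 as well. At an unadjusted p under 0.05, 5 members passed in limma between 8C and BL. The share of all loci at that threshold was not counted, so nothing is drawn from this number.

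The summed abundance of all UBE2 loci depended on the scaling. In CPM (recovered reads per 1e+06 reads of the library) it averaged 979 ± 93.9 in MII, 1557 ± 7.78 in 2C, 1474 ± 17.9 in 4C, 1400.4 ± 217 in 8C, 1179 ± 127 in 16C, 2058 ± 302 in EM, 1287 ± 407 in CM and 1541 ± 172 in BL (SD, n = 2). The mean was 1337 ± 283 CPM before and 1493 ± 379 CPM after EGA, a log2 ratio of 0.16, and the ranges of samples overlapped (912 to 1562 and 999 to 2271). Summed on the deposited scale it was 2019 ± 256 before and 1606 ± 203 after EGA, a log2 ratio of -0.33, and every sample after EGA (1247 to 1852) lay below every sample before it (1857 to 2537). No direction is given, since it turned with the scaling. The top 2 loci of each library took 13.8% to 29.7% of all reads before EGA and 3.07% to 9.41% after it, and CPM values move with that share.

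The make-up of the UBE2 reads is given as a description, with no test. UBE2D3 took 34.4 ± 13.0% of them in MII, 27.1 ± 6.56% in 2C, 16.1 ± 4.08% in 4C and 8.41 ± 0.0752% in CM (SD, n = 2), with ranges of 13.2% to 43.6% before and 7.78% to 18.6% after EGA. UBE2O took 4.92 ± 3.71% before (SD, n = 6) and 15.4 ± 5.99% after EGA (SD, n = 10). UBE2H took 10.6 ± 4.25% before and 7.16 ± 2.22% after EGA. The ranges overlapped for UBE2O (0% to 9.71% before and 9.07% to 25.3% after EGA) and for UBE2H (5.55% to 17.9% and 4.37% to 10.8%). Those of UBE2D3 overlapped too, with the second 4C embryo below both 8C embryos and the second EM embryo.

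**Figure D4:**
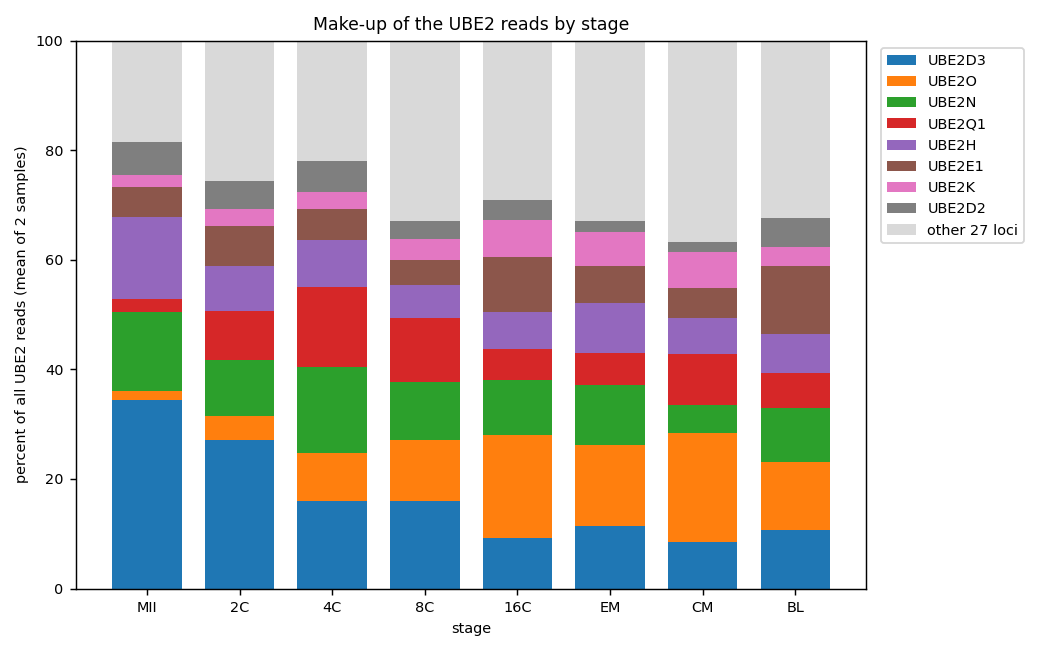
Make-up of all UBE2 reads by stage, as the mean percent over 2 samples for the 8 loci with the highest mean and for the other 27 loci together (vertical axis, percent of UBE2 reads, not corrected for length). UBE2D3 goes from 34.4% in MII to 8.41% in CM.

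Of the genes upstream of the family, RPS27A, which encodes ubiquitin fused to a ribosomal protein, rose from 71.3 ± 38.2 to 292 ± 119 (log2 change 2.10 ± 0.39, limma, adjusted p = 6.7e-05). The polyubiquitin gene UBB was not called, with a log2 change of -0.48 ± 0.44 (limma, adjusted p = 0.34). Of the 15 ubiquitin and ubiquitin-like genes listed, 11 were tested, 5 rose (SUMO3, NEDD8 and FAU among them) and 0 fell. SUMO3 passed the filter only through samples after EGA. This count and those that follow stand beside 36.9% of all loci higher and 29.9% lower. Of the SUMO E1, UBA2 rose (log2 change 1.50 ± 0.41, limma, adjusted p = 0.0032) and SAE1 fell (-0.95 ± 0.42, limma, adjusted p = 0.048). Of 10 E1 genes, 7 were tested, 2 rose (UBA2 and MOCS3) and 2 fell (NAE1 and SAE1), and the main ubiquitin E1, UBA1, was not called (0.00 ± 0.39, limma, adjusted p = 1.0). Among 7 E2 genes without the UBE2 name, 4 were tested. UFC1, the E2 of UFM1, rose from 0.953 ± 1.49 to 20.7 ± 7.45 (limma, adjusted p = 2.7e-07), but with 0 to 7 reads per sample before EGA it passed the filter only through samples after it, and no fold is given. AKTIP, which lacks activity, fell (-1.94 ± 0.49, limma, adjusted p = 0.0015).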

How the data were processed

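RNA of single oocytes or embryos was amplified in 2 rounds and sequenced on the SOLiD platform. The authors mapped the reads, counted them per locus and deposited the counts of each sample divided by a size factor, a scaled signal that is not divided by length. The submitters' processing notes name cutadapt, FastQC, TopHat, Cufflinks and HTSeq without versions, and the genome build and the counting rules for strand and for reads with several positions are not given in the sources used here. Non-zero values were multiples of 1 step per sample, whole within 0.01 for 100% of them, and division by the step gave back the reads. The planned choice of limma for scaled values was kept.

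For each locus, log2(deposited value + 1) was fitted in limma 3.58.1 under R 4.3.3, and variances were moderated by empirical Bayes with a mean trend. P-values were adjusted by the Benjamini-Hochberg method over all loci kept by filterByExpr on the recovered reads (9670 in the model of 8 stages, 6910 for EGA), at a threshold of 0.05. Values are mean ± SD and log2 changes are given with their SE. Shares of reads carry exact Clopper-Pearson 95% intervals (scipy 1.17.1), and the floor was 3 reads. Tables were made with pandas 2.3.3 and plots with matplotlib 3.10.9. Scripts were tested on simulated data.

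Alternatives were TMM and total read scaling, pseudocounts of 0.5 and 5, no filter, edgeR 4.0.16 and DESeq2 1.42.0 on the recovered reads, a replicate block, summed loci of a name, each sample left out, 2 stages alone, the model of 8 stages for the EGA contrast, and both 8C samples left out. The replicate numbers did not pair the samples: deviations of same-numbered samples correlated with r = -0.257 to 0.134 over 28 pairs of stages.

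Members, lists and comparisons were chosen with earlier results of these data known. Values in all 16 samples were given for 15 members by a rule: the 6 largest rises and 6 largest falls after EGA among those called, up to 2 in each direction between single stages, and the 3 with the highest mean CPM overall and among those without a stage effect. The other members were described by their range or their mean ± SD. No sequence is shown, and the results of some genes are not reported here.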

Additional observations from a re-analysis of the deposited data

Results flagged for a closer look

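In each tested member the samples before EGA (6) and after EGA (10) were examined for a single value far from the rest, by the gap to the nearest sample divided by the whole range. Of 48 groups tested 4 stood out, and chance alone gives about 1 in 20. UBE2O before EGA had a ratio of 0.708, because the second MII oocyte was at 0 while the others ran from 40.4 to 191. UBE2B before EGA had a ratio of 0.683, with the first MII oocyte at 1.85 and the others at 11.1 to 22.6. UBE2J2 after EGA had a ratio of 0.537, with the first 16C embryo at 2.18 and the others at 8.09 to 21.5. UBE2E3 after EGA had a ratio of 0.486, with the first EM embryo at 7.73 and the others at 22.9 to 68.5. Each of these samples was the lowest of its group, and they were 4 different samples. The causes were not tested.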

How the results depend on the processing

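The count of members changed after EGA, 15, was 12 to 19 over the alternatives that changed the processing and 13 to 16 when each sample was left out. The count with a stage effect, 13, was 8 by edgeR and 10 to 17 with samples left out. The 2 members called between MII and 4C became 4 under total read scaling and 1 with no filter, by edgeR, by DESeq2 or with 2 stages alone, and 0 to 3 with samples left out (0 without the second MII, first 4C or second 4C sample, and 1 without any single sample of 16C, EM, CM or BL). The 4 between 4C and 8C were 2 with no filter and 2 to 4 with samples left out. Between 8C and BL 1 was called under total read scaling and 0 to 0 with samples left out. With a sample left out, its stage held 1 sample and the filter was looser. The model of 8 stages then tested 10883 to 11194 loci and 25 to 27 members, in place of 9670 and 24. Calls between single stages from those fits thus also reflect a changed set of loci. Between MII and 4C the share of all loci called fell as well without the second MII, first 4C or second 4C sample. The summed level reversed to -0.33 on the deposited scale. Reversed changes after EGA, none of them called, were under total read scaling those of UBE2E1 (0.38), UBE2E3 (0.41), UBE2Q1 (0.28) and UBE2R2 (0.076), by DESeq2 that of UBE2E3 (0.063) and without both 8C samples that of UBE2E1 (0.035). With 1 sample left out, the change ran from -0.23 to 0.020 for UBE2E1, from -0.18 to 0.15 for UBE2E3 and from -0.54 to 0.032 for UBE2Q1. The replicate block changed no count of calls: 15 after EGA, 13 across stages, 2, 4 and 0 between single stages. Calls after EGA of UBE2C, UBE2D3, UBE2F, UBE2G2, UBE2J1, UBE2L3, UBE2M and UBE2Q2 were kept under each alternative that tested them. The causes of lost calls were not tested. Members under the floor of 3 reads (1.09 to 5.40) were not resolved at this depth.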

Other observations

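Partner ligases of UBE2 enzymes from the other lists also moved in both directions after EGA. In the endoplasmic reticulum, SYVN1, the central ligase of protein disposal there, rose from 104 ± 88.2 to 363 ± 236 (log2 change 1.89 ± 0.47, limma, adjusted p = 0.0014). Of 4 genes of that list 3 were found and tested. FANCL, the ligase that works with UBE2T in crosslink repair, fell from 145 ± 80.8 to 21.5 ± 10.4 (-2.64 ± 0.45, limma, adjusted p = 2.5e-05), while UBE2T itself was listed at 0.

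Of 5 partners of the RAD6 class 4 were tested, 0 rose and 1 fell (UBR2). Of 4 partners of UBE2N 3 were tested, 0 rose and 1 fell, RNF8, a ligase at DNA breaks, which went from 117 ± 34.9 to 47.3 ± 12.0 (-1.28 ± 0.30, limma, adjusted p = 7.3e-04). Of 5 SUMO ligases 4 were tested. PIAS3 rose (2.23 ± 0.50, limma, adjusted p = 4.8e-04) and PIAS1 fell (-1.70 ± 0.44, limma, adjusted p = 0.0019). CUL2, the scaffold of 1 class of cullin ligases, rose from 0.617 ± 0.759 to 33.1 ± 16.5 (limma, adjusted p = 3.0e-07). It held 0 to 2 reads per sample before EGA and passed the filter on low counts only through samples after it, so the filter favoured a rise, and no fold is given. Over all 78 listed genes of the pathway outside the family, 76 were found, 58 were tested, 17 rose and 11 fell, beside 36.9% and 29.9% of all loci.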
